A study of Mus musculus with 4 samples.

Results

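The proteasome genes of activated mouse CD8+ T cells were followed through a butyrate treatment in single-cell RNA libraries. Members were all genes whose symbol begins with Psma, Psmb, Psmc or Psmd and a digit, plus Psme1 to Psme4, leaving out the immune-type beta subunits Psmb8, Psmb9 and Psmb10 and the thymic Psmb11, with at least 10 unique molecular identifiers (UMIs, each counted as 1 captured RNA molecule) over all barcodes of at least 6500 UMIs. The rule used no comparison between groups, and it took 40 of the 32285 genes in the files: all 40 matching symbols reached 10 UMIs. Of these, 39 passed the filter on low counts and were tested. The exception was Psma8, an alpha subunit known from the germ line, with 6 and 5 UMIs in the butyrate libraries and 5 and 5 in the control libraries. Psmc3ip matched by symbol only: it encodes a factor of homologous recombination and is no proteasome subunit.

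The 4 libraries came from spleen cells of 2 gBT-I.CD45.1 transgenic mice, whose CD8+ T cells carry a T cell receptor for a peptide of herpes simplex virus glycoprotein B and the congenic marker CD45.1. The cells of both groups were activated with peptide-pulsed B6 splenocytes and LPS and kept in recombinant human IL-2 at 12.5 U/ml, so activation and IL-2 were shared. In the butyrate group, 0.5 mM sodium butyrate was added from day 3 to day 5 after activation (butyrate 1 and butyrate 2). In the control group, PBS was added in its place (control 1 and control 2). Viable transgenic CD8+ cells were sorted and captured on day 6, and libraries with the same number came from the same mouse, per the library names in the labels; no age or sex of the mice is given in the labels.

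The proteasome degrades proteins tagged with ubiquitin and supplies peptides for presentation on MHC class I. Its barrel-shaped core particle has outer rings of alpha subunits, which control entry, and inner rings of beta subunits, of which Psmb5, Psmb6 and Psmb7 carry the catalytic sites. A regulatory particle caps the core: its base holds a ring of ATPases that unfold substrates (Psmc genes) and scaffold subunits, and its lid removes ubiquitin. Activated lymphocytes also make the interferon-inducible subunits Psmb8, Psmb9 and Psmb10, which replace the constitutive catalytic subunits. When proteasome capacity falls short, the transcription factor Nrf1 (gene Nfe2l1) is known to raise many of these genes together through antioxidant response elements in their promoters.

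Promoter windows are shown for 5 members: the catalytic subunits Psmb5 and Psmb6, the lid and ATPase subunits Psmd12 and Psmc6, and Psmb3. The first 4 are among the 6 member genes whose window holds the letters TGACNNNGC, so they are not typical of the members. Psmb3 is the member with the largest log2 fold change. Each runs 5′ to 3′ on the gene's strand, from 250 bases before to 50 bases after the start of the gene, in RefSeq's table for GRCm38.p6. Capitals mark the letters TGACNNNGC, the core of the antioxidant response element, in either direction in the first 4, and the letters CCAAT in Psmb3.
Psmb5, chr14:54617946-54618245, minus strand: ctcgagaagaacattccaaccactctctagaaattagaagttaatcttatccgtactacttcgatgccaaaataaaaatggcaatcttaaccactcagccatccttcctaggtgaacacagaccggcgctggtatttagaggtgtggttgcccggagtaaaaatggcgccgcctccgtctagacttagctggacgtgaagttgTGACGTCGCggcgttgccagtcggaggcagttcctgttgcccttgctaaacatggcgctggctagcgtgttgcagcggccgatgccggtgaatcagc
Psmb6, chr11:70525107-70525406, plus strand: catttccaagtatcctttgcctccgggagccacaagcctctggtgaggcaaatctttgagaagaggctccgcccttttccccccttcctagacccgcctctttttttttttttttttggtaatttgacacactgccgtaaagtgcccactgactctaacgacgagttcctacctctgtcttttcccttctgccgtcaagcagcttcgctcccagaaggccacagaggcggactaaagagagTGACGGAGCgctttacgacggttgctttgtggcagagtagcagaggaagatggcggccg
Psmd12, chr11:107479278-107479577, plus strand: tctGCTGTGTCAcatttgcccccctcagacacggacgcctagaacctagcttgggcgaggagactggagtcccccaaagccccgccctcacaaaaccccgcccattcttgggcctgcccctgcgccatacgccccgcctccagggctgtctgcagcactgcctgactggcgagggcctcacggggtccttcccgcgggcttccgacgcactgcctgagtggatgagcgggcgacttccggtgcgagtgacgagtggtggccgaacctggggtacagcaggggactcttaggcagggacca
Psmc6, chr14:45329574-45329873, plus strand: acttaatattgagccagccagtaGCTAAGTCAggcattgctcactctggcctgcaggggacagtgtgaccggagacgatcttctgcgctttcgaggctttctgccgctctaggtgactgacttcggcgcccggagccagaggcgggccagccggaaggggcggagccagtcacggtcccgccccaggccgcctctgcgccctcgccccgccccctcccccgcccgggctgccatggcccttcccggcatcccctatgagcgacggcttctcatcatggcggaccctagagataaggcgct
Psmb3, chr11:97703184-97703483, plus strand: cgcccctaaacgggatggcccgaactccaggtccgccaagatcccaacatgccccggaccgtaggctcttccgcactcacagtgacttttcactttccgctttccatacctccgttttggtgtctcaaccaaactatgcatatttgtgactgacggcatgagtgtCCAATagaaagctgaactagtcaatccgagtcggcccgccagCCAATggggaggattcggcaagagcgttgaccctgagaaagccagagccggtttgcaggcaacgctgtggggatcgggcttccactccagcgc
In Psmb5 and Psmb6 the letters TGACNNNGC lie 47 and 9 bases before the start on the gene's own strand, whereas in Psmd12 and Psmc6 they lie on the opposite strand, 247 and 227 bases before it. In Psmb3 the 2 CCAAT matches lie 85 and 43 bases before the start.

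The table held windows for 33 of the 40 members, 36 in all, since 3 genes had 2 windows. Searching both strands, TGACNNNGC was found in 6 of the 36 windows, against 12.4% of all 32851 windows in the table and 14.3% of the 12982 windows of tested genes. It was present in 4 of the 22 genes with a window that rose with butyrate (Psmb5, Psmb6, Psmd12 and Psmd9) and in 2 of the 11 other genes with a window (Psmc6 and Psme4). CCAAT was found in 13 of the 36 windows, against 37.4% of all windows, and belonged to 11 of the 22 genes that rose and 2 of the 11 others. The GC box GGGCGG was found in 22 of the 36 windows, against 35.7% of all windows and 61% of those of tested genes. It belonged to 12 of the 22 genes that rose and 9 of the 11 others. CCGGAAG, the letters of an ETS site, was found in 14 of the 36, against 8.86% of all windows and 17.7% of those of tested genes. It belonged to 8 of the 22 genes that rose and 5 of the 11 others. No split between genes that rose and others was tested. Hits of different motifs overlapped 4 times and each was counted. A match describes the letters in the window and shows no binding.

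After barcodes were called as cells, 2560 and 2664 cells remained in the butyrate libraries and 2059 and 2632 in the control libraries. The libraries held between 64388093 and 76522004 UMIs, and cells had medians of 24816 and 23627.5 UMIs with butyrate, against 21793 and 20494 in the controls. Pairs of libraries shared 1 to 6 cell barcodes. Defining genes of CD8+ T cells (6 of 6 detected) summed to 2578 and 2879 CPM (UMIs scaled to 1000000 per library) with butyrate, against 2748 and 2786 CPM in the controls. Markers of other cells summed to far less but were higher with butyrate in every list: natural killer markers reached 48.0 and 57.5 CPM with butyrate, against 8.37 and 9.95 CPM in the controls, dendritic markers 39.5 and 44.8 CPM against 32.4 and 27.0 CPM, and myeloid markers 13.2 and 14.6 CPM against 1.87 and 2.38 CPM. B cell markers reached 8.02 and 8.95 CPM with butyrate, against 6.32 and 5.77 CPM in the controls, and CD4+ T cell and erythroid markers stayed below 1 CPM in every library. Among these markers, C1qa and C1qb (myeloid) and Cd209a (dendritic) were at 0 throughout, and the part of such cells in the results was not tested.

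Proteasome RNA was mostly higher in butyrate-treated cells. UMIs were summed over the cells of each library and tested with edgeR's quasi-likelihood test, with Benjamini-Hochberg adjustment over all 13487 tested genes and a threshold of 0.05. Of the 39 tested members, 27 rose, 2 fell (Psmd2 and Psme4) and 10 did not pass. The background was large: 36% of all tested genes rose and 35.7% fell. The members' median log2 fold change, butyrate over control, was 0.28, against -0.0079 over all tested genes, whose lower and upper quartiles were -0.39 and 0.42. Single members therefore moved by no more than many other genes did: Psmb3, at 0.75, lay highest and Psme4, at -0.33, lowest. In 30 members both butyrate libraries lay above both control libraries and in 6 both lay below, against 42.6% and 43.3% of all tested genes.

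The count depends on how libraries are scaled. Trimmed mean scaling (TMM) sets the typical gene to no change, and its factors were 0.932 and 0.934 for the butyrate libraries, against 1.07 and 1.08 for the controls. With library totals in its place, 18 members rose and 10 fell, beside 25.2% and 49.8% of all genes, the members' median was 0.078 and that of all genes -0.21. The change of scaling shifts all genes by nearly the same amount, so the distance between these 2 medians could not change and shows no stability. With library totals 7 single members turned to a negative fold change (Psma4, Psmb1, Psmc3, Psmd4, Psmd10, Psme2 and Psme3). The rise of Psma4, Psmb1, Psmd4 and Psme3 is therefore one relative to the typical gene only, and the other 3 had not passed. A further 5 members that rose kept a positive fold change with library totals but did not pass. These were Psmb7 (log2 fold change 0.053), Psmc2 (0.11), Psmc3ip (0.070), Psmd14 (0.070) and Psmd7 (0.078).

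**Figure D1:**
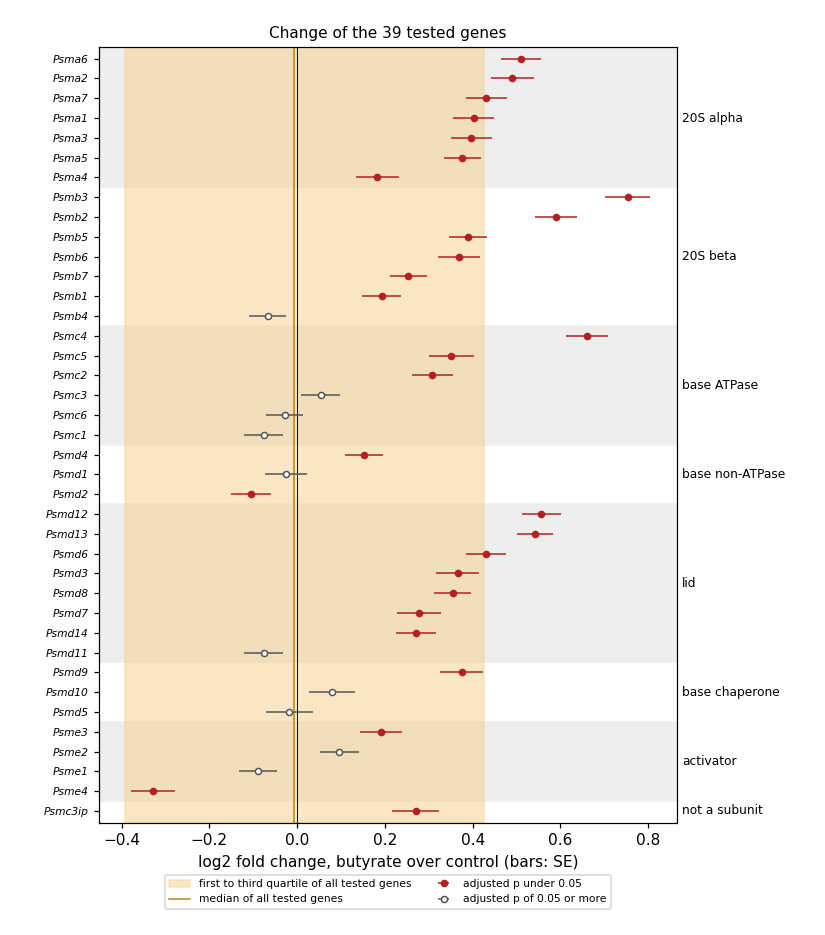
Log2 fold change of the 39 tested genes, butyrate over control (x axis), by role (y axis), with bars for the standard error, filled points for adjusted p under 0.05, a line for the median of all tested genes and a band between their quartiles. All 7 alpha genes lie to the right of 0, the activators scatter around it, and with library totals in place of TMM 7 genes change side (Psma4, Psmb1, Psmc3, Psmd4, Psmd10, Psme2 and Psme3).

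The alpha rings rose as a whole. All 7 tested alpha genes rose, with log2 fold changes of 0.18 to 0.51 and a median of 0.40 (6 rose and none fell with library totals). Of all tested genes, 36% rose and 35.7% fell (25.2% and 49.8% with library totals), the shares to set beside the counts of each role. Psma6 (chr12:55384222-55418454) was the one with the largest change: it had 259 and 272 CPM in the butyrate libraries, against 182 and 192 CPM in the control libraries. The groups did not overlap, and the log2 fold change was 0.51 ± 0.05 (SE, adjusted p = 8.77e-08, n = 2 libraries each). Psma4 (chr9:54950790-54958030) was the one with the smallest: it had 269 and 271 CPM with butyrate, against 226 and 249 CPM in the controls, a log2 fold change of 0.18 ± 0.05 (adjusted p = 0.00375), and -0.02 with library totals. The other 5 genes, Psma1, Psma2, Psma3, Psma5 and Psma7, lay between 0.38 and 0.49.

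Among the beta genes 6 of 7 rose and none fell (4 rose and 1 fell, Psmb4, with library totals), with a median log2 fold change of 0.37. Psmb3 (chr11:97703399-97713500), a structural beta subunit, had 743 and 770 CPM in the butyrate libraries, against 425 and 472 CPM in the control libraries. Both butyrate values lay well above both control values, and the fitted fold between groups was 1.69, a log2 fold change of 0.75 ± 0.05 (adjusted p = 8.33e-09). At the other end, Psmb4 (chr3:94884093-94886961), the last beta subunit to join the core, had 287 and 291 CPM with butyrate, against 296 and 309 CPM in the controls. Both butyrate values lay below both controls, but the difference did not pass (log2 fold change -0.07 ± 0.04, adjusted p = 0.171).

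All 3 genes with catalytic sites rose, though with library totals only Psmb5 and Psmb6 passed. Psmb5 (chr14:54614119-54618022), which carries the chymotrypsin-like site, had 333 and 335 CPM with butyrate, against 249 and 262 CPM in the controls, a log2 fold change of 0.39 ± 0.04 (adjusted p = 1.15e-06). The gene of the caspase-like site, Psmb6 (chr11:70525367-70527858), had 366 and 379 CPM with butyrate, against 277 and 300 CPM in the controls (log2 fold change 0.37 ± 0.05, adjusted p = 4.89e-06). Psmb7 (chr2:38588036-38644087), of the trypsin-like site, had 122 and 120 CPM with butyrate, against 99.2 and 103 CPM in the controls (log2 fold change 0.25 ± 0.04, adjusted p = 6.67e-05). Its log2 fold change was 0.053 with library totals (adjusted p = 0.297). In none of the 3 did the groups overlap.

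**Figure D2:**
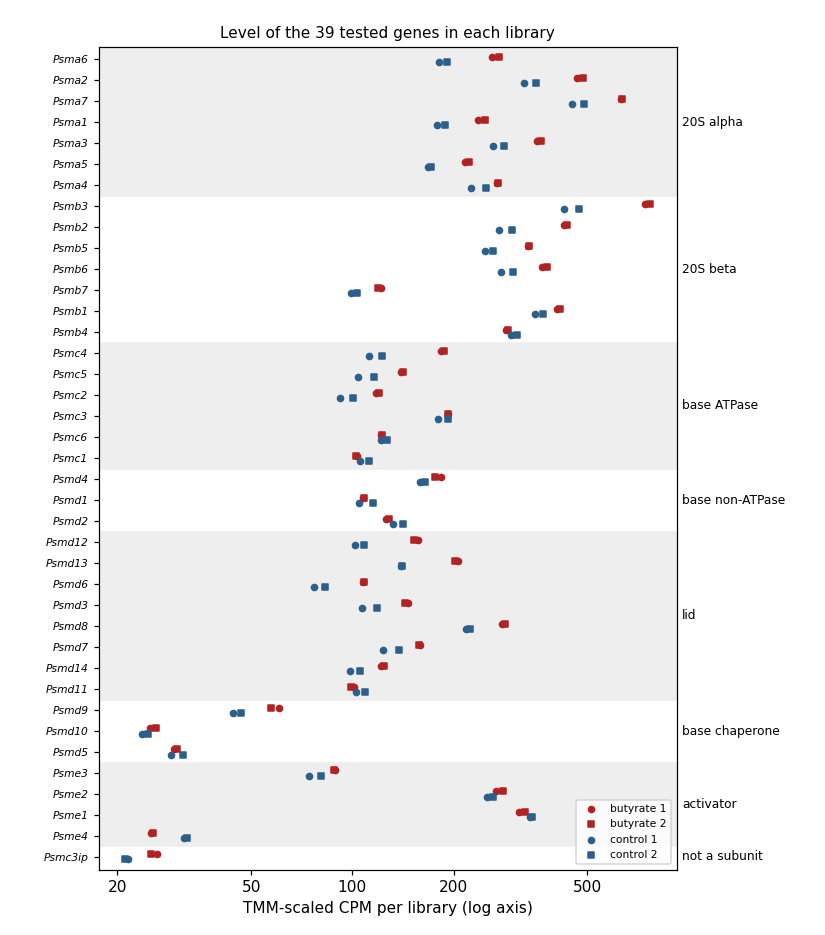
CPM of each tested gene in each library on a log axis (x axis), by role (y axis), with 1 point per library and butyrate listed before control. Psmb3 shows the widest gap between groups, at 743 and 770 CPM with butyrate against 425 and 472 CPM in the controls, while Psmd1, Psmd5 and Psmc6 overlap between groups.

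For the catalytic positions, each constitutive subunit can be set beside the interferon-inducible subunit that takes its place. Psmb5 made up 32.4% and 31.6% of the UMIs of Psmb5 plus Psmb8 with butyrate, against 23.4% and 23.8% in the controls, a difference of 8.42 percentage points between means of 32.0 ± 0.543% and 23.6 ± 0.307% (SD, n = 2 each). Psmb7 made up 60.0% and 58.7% of the UMIs of Psmb7 plus Psmb10 with butyrate, against 37.8% and 37.4% in the controls, a difference of 21.7 percentage points. Psmb6 made up 59.5% and 61.2% of Psmb6 plus Psmb9 with butyrate, against 58.0% and 61.2% in the controls. The shares of Psmb5 and Psmb7 were therefore higher in both butyrate libraries, and those of Psmb6 overlapped between groups (60.4 ± 1.15% with butyrate and 59.6 ± 2.25% in the controls). With 2 libraries against 2 an exact permutation test cannot go below p = 0.333, so these shares are given without a test. Counting error was small: the widest 95% Wilson interval, for Psmb7 in butyrate 2, ran from 57.9% to 59.6%. The inducible genes themselves moved in different directions: Psmb10 fell (log2 fold change -1.02) and so did Psmb8 (-0.22), and Psmb9 rose (0.32).

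**Figure D3:**
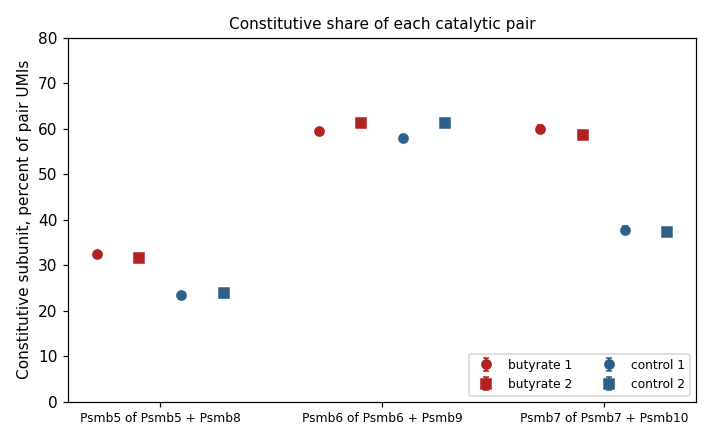
Share of the constitutive gene in the UMIs of each catalytic pair, in percent (y axis), with 1 point per library and butyrate left of control in each pair (x axis). Bars show the 95% Wilson interval, which covers counting error only. The Psmb7 share stands at 60.0% and 58.7% with butyrate against 37.8% and 37.4% in the controls, and the Psmb6 shares overlap.

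The base of the regulatory particle was split. Of the 6 ATPase genes 3 rose (Psmc4, Psmc5 and Psmc2), none fell and 3 did not pass (Psmc1, Psmc3 and Psmc6), beside 36% of all tested genes that rose and 35.7% that fell. With library totals 2 of the 6 rose and 3 fell, beside 25.2% and 49.8% of all genes, so these counts were near the background. Psmc4 (chr7:28041707-28050101) had 183 and 188 CPM with butyrate, against 112 and 123 CPM in the controls, and its log2 fold change of 0.66 ± 0.05 (adjusted p = 1.02e-08) was the second largest of all members. Psmc1 (chr12:100110154-100123405) had 103 and 102 CPM with butyrate, against 105 and 112 CPM in the controls (log2 fold change -0.08 ± 0.04, adjusted p = 0.129). The products of these 6 genes form a single ring, and the change of their RNA ranged from -0.08 to 0.66.

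The 3 large or ubiquitin-binding subunits of the base moved little. Psmd4 (chr3:95032694-95042614), a ubiquitin receptor, had 183 and 176 CPM with butyrate, against 159 and 165 CPM in the controls, and rose by a log2 fold change of 0.15 ± 0.04 (adjusted p = 0.00522), which was -0.05 with library totals. Psmd2 (chr16:20651652-20663414), the scaffold that docks ubiquitin carriers, had 126 and 129 CPM with butyrate, against 132 and 141 CPM in the controls. Its fall of 0.10 on the log2 scale lay just inside the threshold (adjusted p = 0.048), and it did not pass without butyrate 1, without butyrate 2 or without control 2, each of which left 1 member that fell (Psme4), beside 31.4%, 31.6% and 33.2% of all genes. Without control 1, 4 members fell, Psmd2 among them, beside 32.8% of all genes. Psmd1, the other large scaffold, did not pass (log2 fold change -0.03, adjusted p = 0.649), and its groups overlapped.

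The lid rose much like the core. Of its 8 genes 7 rose and none fell, with a median log2 fold change of 0.36 (5 rose and 1 fell, Psmd11, with library totals). Psmd12 (chr11:107479484-107504362), a scaffold subunit, had 157 and 153 CPM with butyrate, against 102 and 108 CPM in the controls, a log2 fold change of 0.56 ± 0.04 (adjusted p = 2.62e-08). Psmd14, the subunit that cuts ubiquitin chains off substrates, rose by 0.27 and Psmd13 by 0.54. With library totals Psmd14 did not pass (log2 fold change 0.070, adjusted p = 0.198). Only Psmd11 of the 8 did not pass: it had 101 and 99.4 CPM with butyrate, against 103 and 109 CPM in the controls (log2 fold change -0.08 ± 0.04, adjusted p = 0.13).

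The 3 base assembly chaperones and the 4 activators showed no common direction. Of the chaperones Psmd9 rose, with 60.4 and 57.3 CPM with butyrate, against 44.1 and 46.7 CPM in the controls (log2 fold change 0.37 ± 0.05, adjusted p = 6.13e-06). Psmd5 had 29.5 and 30.1 CPM with butyrate, against 28.8 and 31.4 CPM in the controls, with overlapping groups (adjusted p = 0.784), and Psmd10 did not pass (log2 fold change 0.08, adjusted p = 0.188). Psme4, which encodes a nuclear activator linked to histone degradation, had 25.2 and 25.5 CPM with butyrate, against 31.5 and 32.1 CPM in the controls, and fell by 0.33 on the log2 scale (SE 0.05, adjusted p = 2.84e-05). Psme3, which encodes another nuclear activator, had 88.6 and 88.4 CPM with butyrate, against 74.3 and 80.7 CPM in the controls (log2 fold change 0.19 ± 0.05, adjusted p = 0.00191), but -0.01 with library totals. The interferon-inducible activator genes Psme1 (-0.09, adjusted p = 0.0744) and Psme2 (0.10, adjusted p = 0.0647) did not pass. With the mouse as a block, Psme1 fell (adjusted p = 0.0381) and Psme2 rose (adjusted p = 0.0298). Reads of Psme2 may be shared with its near-identical copy Psme2b, which held 204 and 238 UMIs with butyrate and 301 and 373 in the controls, against 17254 and 18025 with butyrate and 13739 and 17608 in the controls for Psme2. The recombination gene Psmc3ip, matched by symbol, had 26.2 and 25.2 CPM with butyrate, against 21.5 and 21.1 CPM in the controls (log2 fold change 0.27 ± 0.05, adjusted p = 0.000309). With library totals Psmc3ip did not pass (log2 fold change 0.070, adjusted p = 0.252).

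Summed over all 40 members, proteasome RNA made up 0.793% and 0.808% of the UMIs of butyrate-treated cells, against 0.709% and 0.765% in the controls. The means were 0.800 ± 0.0112% and 0.737 ± 0.0397% (SD, n = 2 each), a difference of 0.0639 percentage points that is larger than the spread within either group, but it falls to 0.0358 points without control 1. The parts of the core, 0.0309 points from the alpha and 0.0344 points from the beta genes, together exceeded the whole difference of 0.0639 points. The lid added 0.0122 points, while the activators' share changed by -0.00962 points and that of Psmd1, Psmd2 and Psmd4 by -0.00505 points. In UMIs per cell, members summed to 214 and 208 with butyrate, against 176 and 181 in the controls. All UMIs per cell were also higher, with means of 26972 and 25737 with butyrate, against 24833 and 23697 in the controls. Barcodes of 1 to 100 UMIs, which hold mainly free RNA, had member shares of 0.815% and 0.774% in the butyrate libraries, against 0.727% and 0.765% in the controls, close to those of the cells.

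Libraries of the same group also differed in these genes. Butyrate 2 lay above butyrate 1 in 28 of 39 members, with a median log2 ratio of 0.02, beside 52.8% of all tested genes. Control 2 lay above control 1 in 38 of 39 members, with a median log2 ratio of 0.09, whereas over all tested genes it was the higher in 49.3%. Within each mouse the direction was the same. Butyrate 1 lay above control 1 in 32 of 39 members (median log2 ratio 0.36), beside 49.5% of all tested genes (median -0.0068). Butyrate 2 lay above control 2 in 30 of 39 (median 0.25), beside 49.4% of all tested genes (median -0.0088).

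Cell by cell, the low end of the distribution differed more than the high end. Each cell was thinned to 8000 UMIs, which left out 54 and 68 shallower cells of the butyrate libraries and 71 and 112 of the control libraries. Thinned cells held means of 60.0 and 61.0 member UMIs with butyrate, against 52.1 and 56.5 in the controls (unthinned values are the UMIs per cell given above). The 5th percentile was 37 and 38 UMIs with butyrate, against 26 and 27 in the controls, whereas the 95th percentile was 88 and 89 with butyrate, against 81 and 87 in the controls. No cell was at 0. The variance divided by the mean over cells was 3.98 and 4.05 with butyrate, against 5.38 and 5.72 in the controls, so control cells varied more among themselves in both libraries. The median cell had a UMI of 26 and 26 members with butyrate and of 25 and 26 in the controls.

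**Figure D4:**
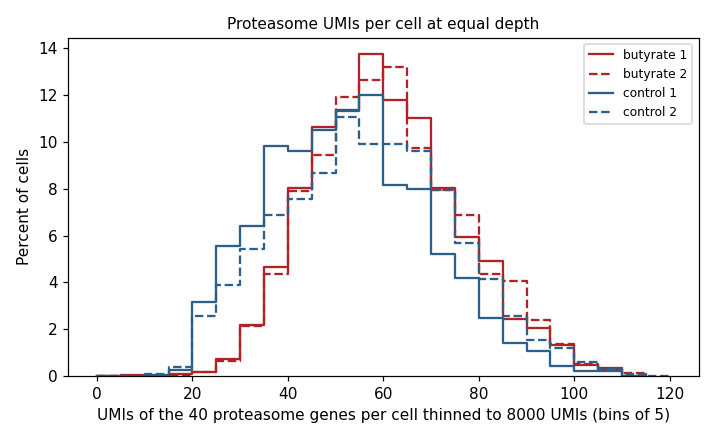
Share of cells in percent (y axis) by the summed UMIs of the 40 members per cell thinned to 8000 UMIs (x axis), with 1 line per library and butyrate listed before control. The control lines reach further to the left, with 5th percentiles of 26 and 27 UMIs against 37 and 38 with butyrate.

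Cells were then divided by the cycle genes Mki67 and Top2a: those with at least 1 UMI of either after thinning, which were 86.6% and 84.9% of thinned cells with butyrate and 86.4% and 85.6% in the controls, and those with none, 335 and 392 cells with butyrate and 270 and 363 in the controls. A cell without such a UMI need not be resting, and Mki67 itself fell with butyrate (log2 fold change -0.37). In butyrate libraries 9 members were higher and 12 lower in cells with Mki67 or Top2a than in cells without, beside 14.6% and 18.8% of all genes. In control libraries 26 were higher and 5 lower, beside 26.2% and 24%. In thinned cells with either gene, members summed to means of 60.2 and 61.5 UMIs with butyrate, against 53.7 and 58.4 in the controls, and in thinned cells without either to 58.6 and 58.6 with butyrate, against 42.2 and 45.9 in the controls. The difference between groups was thus wider in cells without these cycle genes.

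In cells with Mki67 or Top2a, 27 members rose with butyrate and 3 fell (Psmc1, Psmd2 and Psme4), beside 35.6% and 35.5% of all genes, with a median log2 fold change of 0.26. In cells without either gene 31 rose and 1 fell (Psme1), beside 26.4% and 25.3%, with a median of 0.57. The difference itself was tested in a model with library as a block over 12800 genes: the signed log2 fold change was lower in cells with Mki67 or Top2a than in cells without for 29 members and higher for 1 (Psme1, whose fall was in cells without), beside 13.7% and 9.47% of all genes, with a median difference of -0.26 (log2). Depth moved with these classes: cells with either gene had medians of 26382 and 25076 UMIs with butyrate, against 24025.5 and 22784 in the controls, and cells without had 19355 and 19272.5 with butyrate, against 13112.5 and 12772 in the controls. Among cells of 10000 to 20000 UMIs, a limit chosen after the data were seen, 7 members had a lower signed log2 fold change in cells with Mki67 or Top2a and 2 a higher one, beside 4.46% and 5.42% of all genes, with a median difference of -0.16. This band held 153 and 175 cells without either gene with butyrate, against 144 and 185 in the controls. It narrowed the gap in depth without closing it: in the band, cells with either gene had medians of 15239.5 and 15660 UMIs with butyrate, against 15094.5 and 15353.5 in the controls, and cells without had 14285 and 14353 with butyrate, against 13568.5 and 13285 in the controls. The count of members that differed, 30 with every library, was 12 without control 2 (11 lower and 1 higher, beside 6.38% and 8.18% of all genes) and 18 without control 1 (17 lower and 1 higher, beside 7.48% and 8.73%).

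Psmd1 showed the largest difference between classes. In cells with Mki67 or Top2a it had 104 and 105 CPM with butyrate, against 107 and 118 CPM in the controls, and in cells without 94.0 and 87.6 CPM with butyrate, against 53.8 and 64.8 CPM in the controls. Its response differed by -0.72 ± 0.09 (log2, with minus without), and by -0.64 in the band of 10000 to 20000 UMIs (adjusted p = 0.00101). Psmb3 had 693 and 721 CPM with butyrate in cells with either gene, against 420 and 470 CPM in the controls, and 848 and 841 CPM with butyrate in cells without, against 385 and 405 CPM in the controls. Its response differed by -0.43 ± 0.05, and by -0.42 in that band (adjusted p = 0.000282). Psme1 differed in the other direction: in cells with either gene it had 292 and 304 CPM with butyrate, against 320 and 325 CPM in the controls, and in cells without 348 and 359 CPM with butyrate, against 439 and 437 CPM in the controls. Its response differed by 0.19 ± 0.06, and by 0.32 in that band (adjusted p = 0.00955). The other members that passed in that band were Psmc1, Psmd6, Psmb5, Psma1 and Psmb2, with a lower signed log2 fold change in cells with either gene, and Psmb1, with a higher one.

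**Figure D5:**
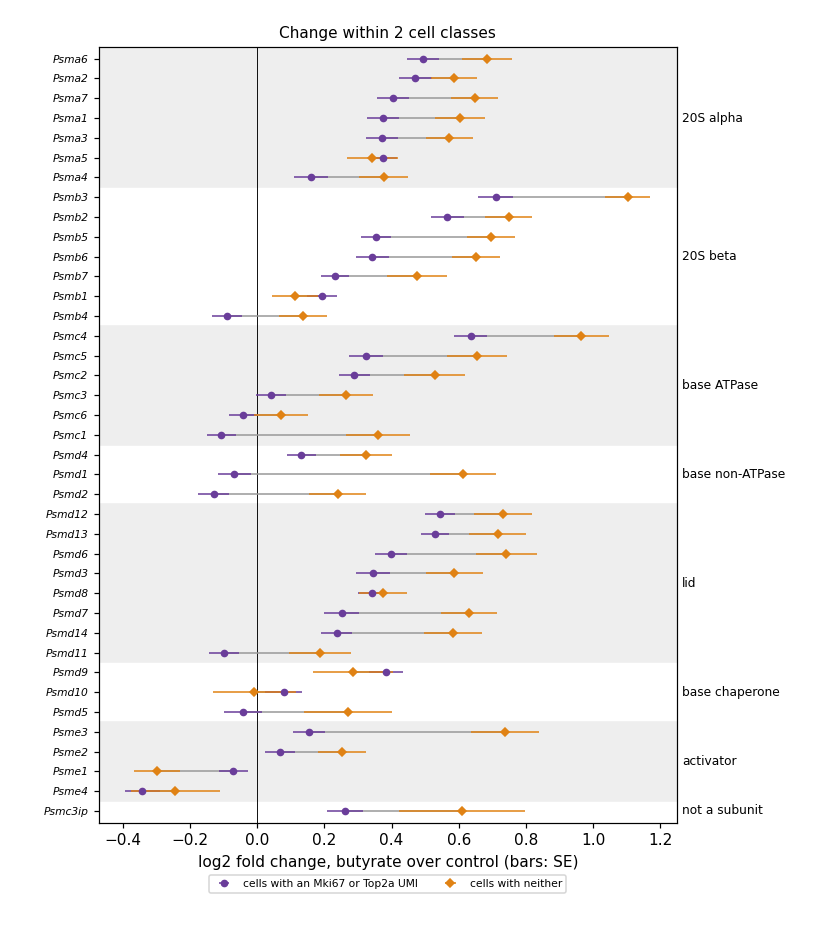
Log2 fold change of each tested gene, butyrate over control (x axis), within cells with and within cells without a UMI of Mki67 or Top2a, by role (y axis), with bars for the standard error. Psmb3 lies at 0.71 in cells with and 1.10 in cells without, Psmd1 at -0.07 in cells with and 0.61 in cells without, and Psme1 at -0.07 in cells with and -0.30 in cells without, in all kept cells of at least 8000 UMIs.

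Genes that work with the proteasome did not move as a block. Beside the counts below stand 36% of all tested genes that rose and 35.7% that fell (25.2% and 49.8% with library totals). Of the 2 subunit genes outside the symbol rule, both rose: Adrm1, a ubiquitin receptor, and Sem1, a small lid subunit (log2 fold changes 0.26 and 0.48), and with library totals only Sem1 rose. Of the 5 assembly chaperones of the core 4 rose and none fell, the largest change being that of Psmg2 (0.76), which had 79.1 and 81.9 CPM with butyrate, against 45.8 and 49.5 CPM in the controls; with library totals 3 rose and 1 fell. Of 7 tested associated factors, such as deubiquitinases and adaptors, 2 rose and 4 fell, with Ecpas, an adaptor of the whole particle, at -0.51; with library totals 0 rose and 5 fell. Of 7 genes of the Nrf1 pathway 1 rose and 5 fell (0 and 6 with library totals): Nfe2l1, which encodes Nrf1, had 11.6 and 11.4 CPM with butyrate, against 22.1 and 22.8 CPM in the controls (log2 fold change -0.96, adjusted p = 1.19e-09), and Vcp, the segregase that draws Nrf1 out of the membrane, changed by -0.51. Of the genes that encode ubiquitin, Ubb rose by 0.22 and Rps27a by 0.15, and with library totals neither rose. Both ubiquitin-activating enzymes, Uba1 and Uba6, fell (-0.17 and -0.46). Among genes of shuttles that carry ubiquitinated proteins to the proteasome, Ubqln1 rose by 0.17, though not with library totals, and Ubqln2 and Ubqln4 fell (-0.26 and -0.27).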

How the data were processed

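Single-cell 3′ RNA libraries of 2 butyrate and 2 control cultures were analysed. The authors deposited UMI counts per gene and barcode, not normalized, for all 6794880 possible barcodes; Cell Ranger 4, Seurat 4.3 and mm10 are named in the submitters' processing notes, while no annotation release or intron setting is given in those notes or the labels. Barcodes were kept as cells above 10% of the 99th percentile of the 3000 largest (6201.77 to 6643.83 UMIs), with at least 500 genes and under 10% mitochondrial UMIs; doublets were not removed. Kept cells were summed per library, and sums were tested with edgeR 4.0.16 (R 4.3.3; filterByExpr, TMM, robust quasi-likelihood fit on treatment, Benjamini-Hochberg over 13487 genes, threshold 0.05). SE is the log2 fold change divided by the root of F. CPM use TMM library sizes. Fits were tested on simulated data. Gene coordinates are from GENCODE M21 (GRCm38); promoter sequences are RefSeq's for GRCm38.p6.

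Replicate numbers mark the mouse, per the library names in the labels, so numbers pair the libraries; deviations of same-numbered libraries correlated at 0.0594 (Pearson, across 13487 genes, which are not independent). The study has 2 mice, 1 culture of each per group, so p-values rest on 2 libraries a group.

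The members and gene lists were chosen with earlier results of these data known. Every member was counted; values per library are given for the catalytic subunits, the highest and lowest fold change of each role, and members that are no subunits or were not tested, and other lists by counts and their largest called change. Psmd14, Psmd13 and further genes were named after their values were seen. Alternatives were other scaling, cell limits, thinning to 8000 UMIs, DESeq2 1.42.0, a mouse block, each library left out, and cells with or without Mki67 or Top2a; those on cells of 20000 to 30000 and 10000 to 20000 UMIs were added after the data were seen. Of the associated factors, 2 of 9 listed symbols were not matched and are not analysed here, and a few genes of the other lists are not reported here. Wilson intervals cover counting error only.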

Additional observations from a re-analysis of the deposited data

Results flagged for a closer look

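The response to butyrate differed between cells with and cells without a UMI of Mki67 or Top2a in 30 members, by the test of the difference itself over all genes. Among the members described above, the difference (log2, cells with minus cells without) was -0.251 for Psma4 and -0.226 for Psma6 among the alpha genes, and -0.426 for Psmb3, -0.258 for Psmb4, -0.377 for Psmb5, -0.342 for Psmb6 and -0.279 for Psmb7 among the beta genes. In the regulatory particle it was -0.499 for Psmc1, -0.364 for Psmc4, -0.716 for Psmd1, -0.405 for Psmd2, -0.227 for Psmd4, -0.32 for Psmd11 and -0.224 for Psmd12. Among the activators it was -0.62 for Psme3 and 0.193 for Psme1. Of these, Psmb3, Psmb5, Psmc1, Psmd1 and Psme1 also passed among cells of 10000 to 20000 UMIs, where the depth of the classes was closer. The other members named here did not pass in that band, where their differences ran from -0.38 for Psmc4 to -0.08 for Psmd12. The band also held fewer cells, and the part of depth itself was not tested.

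Barcodes of 1 to 100 UMIs, which no comparison used, carried a member share of UMIs that averaged 0.795% in the butyrate libraries and 0.746% in the control libraries. The values were 0.815% and 0.774% in the butyrate libraries, against 0.727% and 0.765% in the controls, so the groups did not overlap, though butyrate 2 and control 2 lay close together. The difference was not tested.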

How the results depend on the processing

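The members that rose numbered 25 to 31 under every alternative but library totals, which gave 18; the share of all genes that rose was 26.4% to 36.8% under those alternatives and 25.2% with library totals. Of the 39 tested members, 18 kept direction and side of the threshold under all 14 alternatives and 21 changed somewhere. The members that fell numbered 2: with library totals 10, and with barcodes of at least 6500 UMIs, thinned cells, cells without Mki67 or Top2a or DESeq2 1 each; leaving out 1 library gave 1 to 4, beside 25.3% to 36.6% of all genes under the alternatives other than library totals and 49.8% with them. The median log2 fold change of 0.28 was 0.078 with library totals, 0.36 in thinned cells and 0.57 in cells without Mki67 or Top2a, and 0.24 to 0.36 with 1 library left out. The member share difference of 0.0639 points was 0.104 points with mitochondrial and ribosomal protein genes left out of the total, and 0.0358 to 0.092 points with 1 library left out. The 30 members whose response differed between classes compare with 9 in cells of 10000 to 20000 UMIs and 12 to 28 with 1 library left out. With a class limit of 2 UMIs the count was 30 (14.3% of all genes lower and 10.1% higher) and with library totals 31 (14.1% and 8.84%).

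With the mouse as a replicate block, 28 members rose and 3 fell, beside 36.8% and 36.6% of all genes, the median was 0.28, and no call changed other than those of Psme1 and Psme2. The class difference without 1 mouse was not run, since no residual degrees of freedom would remain.

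The log2 fold change changed sign as follows. With library totals it was -0.0177 for Psma4, -0.00733 for Psmb1, -0.146 for Psmc3, -0.121 for Psmd10, -0.0478 for Psmd4, -0.104 for Psme2 and -0.00911 for Psme3. With 1 library left out, it ran from -0.00276 to 0.0986 for Psmc3, from -0.0860 to 0.0433 for Psmd5 and from -0.104 to 0.0441 for Psmd1. In thinned cells it was 0.00679 for Psmb4, 0.00676 for Psmc1, 0.0256 for Psmd1 and 0.0104 for Psmd5. In cells without Mki67 or Top2a it was 0.135 for Psmb4, 0.358 for Psmc1, 0.0712 for Psmc6, 0.612 for Psmd1, -0.00859 for Psmd10, 0.188 for Psmd11, 0.239 for Psmd2 and 0.270 for Psmd5. In cells of 20000 to 30000 UMIs, where 28 members rose and 2 fell, beside 30.5% and 29.4% of all genes, it was 0.00742 for Psme1. The cause was not tested. Only Psma8, at 5 or 6 UMIs a library, was left untested, by the filter on low counts.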

Other observations

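Barcodes left out for a mitochondrial share of 10% or more numbered 63 and 92 in the butyrate libraries and 217 and 295 in the control libraries. Their member share of UMIs was 0.514% and 0.551% with butyrate, against 0.478% and 0.546% in the controls, lower than that of the kept cells in every library. With the mitochondrial limit at 5%, the members' share of UMIs in kept cells was 0.829% and 0.852% with butyrate, against 0.768% and 0.823% in the controls.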
